A study of Mus musculus with 27 samples.

Results

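The liver transcriptome of *Mlx*KO mice was compared between 20 and 5 months of age across all genes, from albumin and the other abundant secreted proteins down to the low-level genes of immune and stromal cells. The members were the 9 liver samples, chosen by the tissue and age given in the sample annotation, out of 27 samples in the series, and the others were omental adipose tissue and skeletal muscle of both ages. Livers at 5 months came from 4 mice and livers at 20 months from 5 other mice, so no animal was measured at both ages. All 9 mice were male and carried the same alleles, a tamoxifen-inducible Cre recombinase (cre/ERT2) at the ROSA26 locus and floxed *Mlx* (Mlx Flox/Flox), and all had received tamoxifen at 75 mg/Kg in corn oil by intraperitoneal injection on 5 days at weaning, once they weighed 15 g. ROSA26 is active throughout the body, so *Mlx* excision was not restricted to hepatocytes. Wild-type livers were not analysed here, so what belongs to age and what belongs to the loss of *Mlx* cannot be told apart. The older group is annotated as 20 months, while its sample codes begin with X18, and the feeding state and the hour of tissue collection are not given in the sources used here.

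Mlx is the dimerization partner of the glucose-sensing transcription factor ChREBP (Mlxipl) and of MondoA (Mlxip), which bind E boxes and carbohydrate response elements in glycolytic and lipogenic genes. The liver is built of lobules in which blood runs from the portal vein to the central vein: periportal hepatocytes make urea and glucose and burn amino acids and fatty acids, whereas pericentral hepatocytes make glutamine and bile acids and carry out drug metabolism. Between the hepatocyte plates lie fenestrated sinusoidal endothelium, resident macrophages (Kupffer cells) and vitamin A storing stellate cells, the main source of collagen when the liver scars. In bulk tissue, fewer cells of a type and less RNA per cell of that type cannot be told apart.

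All expression values are CPM (reads scaled to a common library size) divided by the factor that the authors' normalization assigned to each library, and per-mouse values are always given in the order of mice X5L4299, X5L5001, X5L5238 and X5L5239 at 5 months and mice X18L16, X18L17, X18L18, X18L19 and X18L74 at 20 months. Libraries held 17200431 to 20734388 reads at 5 months and 19007751 to 24179928 at 20 months, and 1 read was worth 0.0501 to 0.0800 across the 9 livers. Mlx itself was at 24.2, 32.4, 30.4 and 28.9 at 5 months and 21.1, 26.1, 25.6, 27.8 and 18.8 at 20 months (log2 change -0.28 ± 0.14 (SE), adjusted p = 0.168), and since these gene-level values include exons outside the floxed segment, they do not measure excision. On the first principal component, which held 54.6% of the variance of log2 values, all 5-month livers lay between -42.9 and -24.2, mouse X18L16 lay at -9.38 and the other 20-month livers lay between 18.5 and 52.1, with mouse X18L74 at the far end. The second component (16.6%) split the 5-month livers, with mice X5L4299 and X5L5001 at 14.7 and 27.4 and mice X5L5238 and X5L5239 at -13.9 and -10.4. The deposited factors differed between the ages without overlap (0.717 to 0.758 at 5 months, 0.811 to 1.05 at 20 months), so a change in overall scale with age cannot be told apart from age itself. When the factors were taken out, the median of all genes moved by 0.22 on the log2 scale and 89.3% of the changed genes were higher at 20 months, and when libraries were rescaled to the reads outside the 20 most abundant genes it moved by 0.16 and 82.2% were higher. The split under the deposited factors was 50.6% higher. Directions of gene groups that turn under either rescaling, quantile normalization, median-of-ratios factors or removal of length and GC trends are given with the groups.

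The livers carried the markers of liver and of little else. Hepatocyte identity genes summed to 283141 to 351329 at 5 months and 168066 to 276129 at 20 months. Skeletal muscle markers summed to at most 1.28 in any liver, with the contractile genes Acta1 and Myh4 at 0 in all 9, and among adipocyte markers the hormone Lep was at 0 in all 9 and Adipoq and Plin1 were at 0.102 or below. Of 10 adipocyte markers 4 could be tested, of which the carbonic anhydrase Car3 and Lpl were higher and Cidec lower, genes that liver cells also express, and the list summed to 263 to 397 at 5 months and 611 to 1548 at 20 months. Of 13 pancreatic acinar markers 1 could be tested and was higher (Cela1, 0.93), and the list summed to at most 15.4 in any liver. Xist did not exceed 0.301 in any liver, while Ddx3y, the Y-linked RNA helicase, was at 82.7 to 103 at 5 months and 63.7 to 88.1 at 20 months. Red blood cell markers did move with age, and 4 of 7 tested (the hemoglobins Hbb-bs, Hbb-bt and Hba-a1 and the erythroid heme enzyme Alas2) were higher at 20 months, by 0.37 to 0.87 on the log2 scale. The markers summed to 688 to 870.1 at 5 months and 976 to 1281 at 20 months, and the part of residual blood in the results was not tested. Leaving out 1 liver gave higher calls from 1 without mouse X18L17 to 5. Hbb-bt was no longer called in 7 of 9 fits without 1 liver (adjusted p up to 0.0767 without mouse X18L18), Hba-a1 in 7 (0.105 without X5L5001) and Alas2 in 7 (0.0922 without X18L18). Hbb-bs kept its call in each of these fits.

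A test of each gene (limma on log2(value + 1), Benjamini-Hochberg adjusted p under 0.05) found 19.8% of 12654 genes changed, 10% higher and 9.79% lower at 20 months, and the ages did not overlap at all for 19.1%. These shares are the background for every count below. Tested genes were those at 1 or more in at least 4 livers, and 163 of them reached this through the 20-month livers alone, with every 5-month value under 1, so that calls among them (95 were higher) are partly set by the filter. The groups that hold such genes are named, and counts without them are given. The balance depended on level. Among genes with a mean value of 1 to 10, 14.1% were higher and 2.55% lower, whereas among the 152 genes at 1000 or more, 3.29% were higher and 15.8% lower. In the middle of the range the balance had already turned, with 8.28% higher and 12.1% lower at 10 to 100, and 8.01% higher and 18.03% lower at 100 to 1000. The median log2 change was 0.18, -0.06, -0.11 and -0.20 from the lowest of these 4 ranges to the highest. The number of changed genes rested on the mice included, being 2508 with all 9 livers and 3557 without mouse X18L16, the 20-month liver nearest to the 5-month group. It was 1376 without mouse X18L17, 959 without mouse X18L18, 1476 without mouse X18L19, 1351 without mouse X5L4299, 980 without mouse X5L5001, 1600 without mouse X5L5238 and 1618 without mouse X5L5239.

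**Figure D1:**
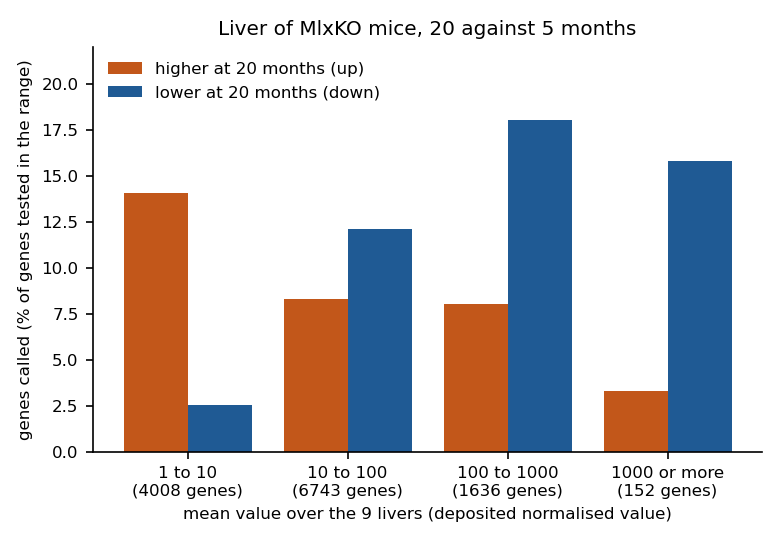
Percent of tested genes that were higher (up) or lower (down) at 20 months than at 5 months in livers of *Mlx*KO mice, in 4 ranges of mean value over the 9 livers (x axis, deposited normalised value). Higher calls fall from 14.1% of genes at 1 to 10 to 3.29% at 1000 or more, and lower calls rise from 2.55% to 15.8%.

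Promoter sequences of 3 interferon-stimulated genes and 1 gene of cholesterol synthesis are shown. They were picked among called members because their promoter holds the element searched for. Called members without the element were passed over, so these promoters do not stand for their groups. RefSeq promoters (GRCm38.p6, 250 bases before to 50 after the start of the transcript) were searched on both strands for the interferon-stimulated response element in the form GAAANNGAAA, for the sterol regulatory element in the form TCACNCCAC and for the E box CACGTG to which Mlx heterodimers can bind. The capitals mark the match. In Cxcl10 (chr5:92348840-92349139, minus strand) the match starts at -213 from the start site, in Bst2 (chr8:71537423-71537722, minus strand) overlapping matches start at -130 and -124, in Irgm2 (chr11:58214727-58215026, plus strand) it starts at -64, and in Hmgcs1 (chr13:119690101-119690400, plus strand) the sterol element starts at -137.
Cxcl10: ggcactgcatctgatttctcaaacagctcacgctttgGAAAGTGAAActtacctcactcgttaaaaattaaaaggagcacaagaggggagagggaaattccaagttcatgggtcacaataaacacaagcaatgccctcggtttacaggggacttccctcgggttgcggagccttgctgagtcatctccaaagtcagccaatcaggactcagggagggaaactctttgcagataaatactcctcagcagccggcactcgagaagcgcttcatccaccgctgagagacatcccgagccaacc
Bst2: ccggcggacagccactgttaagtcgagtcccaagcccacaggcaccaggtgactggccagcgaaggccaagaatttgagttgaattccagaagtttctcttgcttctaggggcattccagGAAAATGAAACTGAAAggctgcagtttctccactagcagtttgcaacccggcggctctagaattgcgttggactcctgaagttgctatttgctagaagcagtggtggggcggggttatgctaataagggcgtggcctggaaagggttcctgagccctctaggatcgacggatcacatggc
Irgm2: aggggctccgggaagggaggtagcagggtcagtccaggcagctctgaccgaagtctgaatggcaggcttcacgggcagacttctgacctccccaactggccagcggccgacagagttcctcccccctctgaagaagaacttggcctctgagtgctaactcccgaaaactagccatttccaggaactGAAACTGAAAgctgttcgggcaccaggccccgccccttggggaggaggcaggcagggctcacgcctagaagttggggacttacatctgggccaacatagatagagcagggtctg
Hmgcs1: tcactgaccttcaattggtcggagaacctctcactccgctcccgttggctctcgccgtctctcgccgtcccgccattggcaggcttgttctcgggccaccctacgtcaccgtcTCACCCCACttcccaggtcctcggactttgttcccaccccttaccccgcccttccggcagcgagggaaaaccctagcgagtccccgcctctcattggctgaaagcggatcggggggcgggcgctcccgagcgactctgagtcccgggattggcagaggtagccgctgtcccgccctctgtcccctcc
The interferon element was present in 25 of 46 promoters of interferon-stimulated genes (54.4%), in 3.44% of all 32851 promoters, and in 6.28% of promoters of higher genes against 2.98% of those of lower genes. The sterol element was present in 1 of 21 promoters of cholesterol synthesis genes and in 1.24% of all promoters. The E box was present in 7.15% of all promoters, 9.85% of those of tested genes, 8.53% of those of higher genes and 11.04% of those of lower genes, and in 5 of 37 promoters of lipogenic genes. A match says only that these letters are in the window.

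Interferon-stimulated genes rose in the older livers, 43 of 54 tested members with none falling, at a median log2 change of 1.54 beside 0.00 for all genes. All 54 had a positive log2 change, and of them Ubd and Oas1g reached the test through the 20-month livers alone (41 of the other 52 were higher). For 24 of the 54 the ages did not overlap. After the ubiquitin-like protein Ubd, the listed members with the largest log2 changes were guanylate-binding proteins and immunity-related GTPases, which attack the vacuoles of intracellular pathogens. Gbp10 was at 0.955, 0.655, 1.57 and 2.16 at 5 months and 2.29, 34.9, 27.3, 5.62 and 47.3 at 20 months (log2 change 2.83 ± 0.70 (SE), adjusted p = 0.0218). Gbp6 was at 5.85, 3.06, 4.63 and 6.48 at 5 months and 9.87, 60.8, 53.9, 20.05 and 85.9 at 20 months (log2 change 2.65 ± 0.53 (SE), adjusted p = 0.0116). Tgtp1 was at 3.31, 2.40, 1.92 and 3.04 at 5 months and 3.82, 21.8, 44.4, 13.4 and 103 at 20 months (log2 change 2.71 ± 0.69 (SE), adjusted p = 0.0233). The ages did not overlap in these 3, and mouse X18L16 was the lowest of the older livers in each, just above the 5-month range. They share 84.1%, 70.7% and 81.2% of their 50-base windows with paralogs, so reads may be split among copies. The nucleic acid sensor Zbp1 was at 3.25, 1.82, 3.21 and 2.32 at 5 months and 5.70, 29.6, 19.04, 23.6 and 45.4 at 20 months (log2 change 2.59 ± 0.44 (SE), adjusted p = 0.00866), and no liver at 20 months came down to the 5-month range. Irf7, the transcription factor that amplifies type I interferon, rose from between 12.03 and 16.9 at 5 months to between 31.8 and 193 at 20 months (log2 change 2.43 ± 0.38 (SE), adjusted p = 0.00775). The genes whose promoters are printed above, which were picked among called members, also rose. Cxcl10, a T cell attracting chemokine, was at 3.25, 0.727, 1.497 and 2.40 at 5 months and 3.46, 7.21, 31.4, 5.57 and 69.3 at 20 months (log2 change 2.32 ± 0.71 (SE), adjusted p = 0.0432). Bst2 (tetherin, which holds budding virions at the membrane) was at 94.3, 64.2, 103 and 90.5 at 5 months and 160, 335, 214, 198 and 185 at 20 months (log2 change 1.28 ± 0.21 (SE), adjusted p = 0.00775). Irgm2, an immunity-related GTPase, was at 56.6, 34.1, 51.0 and 35.6 at 5 months and 57.96, 115, 76.5, 76.8 and 91.4 at 20 months (log2 change 0.90 ± 0.21 (SE), adjusted p = 0.0169). Mouse X18L16 had the lowest 20-month value of each of these 3, and for Cxcl10 it lay next to the 5-month livers. The number of members called ran from 16 (without mouse X5L5001) to 54 over the fits that left out 1 liver, being 54 without mouse X18L16 and 37 without mouse X18L74, and the median stayed within 1.42 to 1.75 under the other scalings. Gbp10 was no longer called in 3 of 9 fits without 1 liver (adjusted p up to 0.0641 without mouse X5L5001), Tgtp1 in 3 (0.0625 without X18L18), Cxcl10 in 6 (0.113 without X5L5001) and Irgm2 in 1 (0.0535 without X5L5001). Gbp6, Zbp1, Irf7 and Bst2 kept their calls in each of these fits.

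Genes of antigen presentation rose. Of 25 tested genes for MHC class I and antigen processing, 14 were higher and none lower (median log2 change 0.64), and 7 of 8 MHC class II genes were higher (median 1.61). The immunoproteasome subunits, which replace the constitutive catalytic subunits and cut peptides for MHC class I, rose. Psmb8 was at 13.6, 5.82, 13.3 and 14.2 at 5 months and 15.7, 39.4, 50.3, 29.8 and 99.5 at 20 months (log2 change 1.73 ± 0.44 (SE), adjusted p = 0.0228), and Psmb10 was at 15.3, 11.1, 12.1 and 13.3 at 5 months and 19.6, 38.97, 63.1, 36.4 and 97.1 at 20 months (log2 change 1.71 ± 0.36 (SE), adjusted p = 0.0130). In both genes mouse X18L74 was the highest liver and mouse X18L16 the lowest of the older ones. Psmb9 was at 5.24 to 7.98 at 5 months and 7.89 to 42.6 at 20 months (1.51). They and the proteasome activators Psme1 (0.84) and Psme2 (0.68) were the only proteasome subunits called higher, while 8 of 46 were called lower. The class I heavy chain H2-D1 rose from a mean of 754 to 1314 and its partner B2m from 1294 to 2058, both among the few genes above 1000 that rose. Cd74, the invariant chain that guards class II molecules, was at 74.5, 76.6, 57.4 and 90.7 at 5 months and 109, 116, 488, 190.1 and 502 at 20 months (log2 change 1.602 ± 0.45 (SE), adjusted p = 0.0320). H2-Ab1, H2-Aa and H2-Eb1, which form the class II heterodimers, moved in the same range (1.69, 1.62 and 1.78), as did their transactivator Ciita (1.37 ± 0.39, adjusted p = 0.0333). Over the fits that left out 1 liver, the number of class I genes called higher was 4 (without mouse X5L5001) to 20 and of class II genes 3 (without mouse X5L5001) to 8, with 20 and 8 without mouse X18L16 and 13 and 7 without mouse X18L74. Psmb8 was no longer called in 2 of 9 fits without 1 liver (adjusted p up to 0.0701 without mouse X5L5001), Psmb9 in 1 (0.0543 without X5L5001), H2-D1 in 3 (0.0545 without X5L5001), B2m in 7 (0.0834 without X5L5001), Cd74 in 6 (0.0762 without X5L5238), H2-Aa in 1 (0.0557 without X5L5001) and Ciita in 5 (0.0956 without X5L5001). Psmb10 kept its call in each of these fits.

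**Figure D2:**
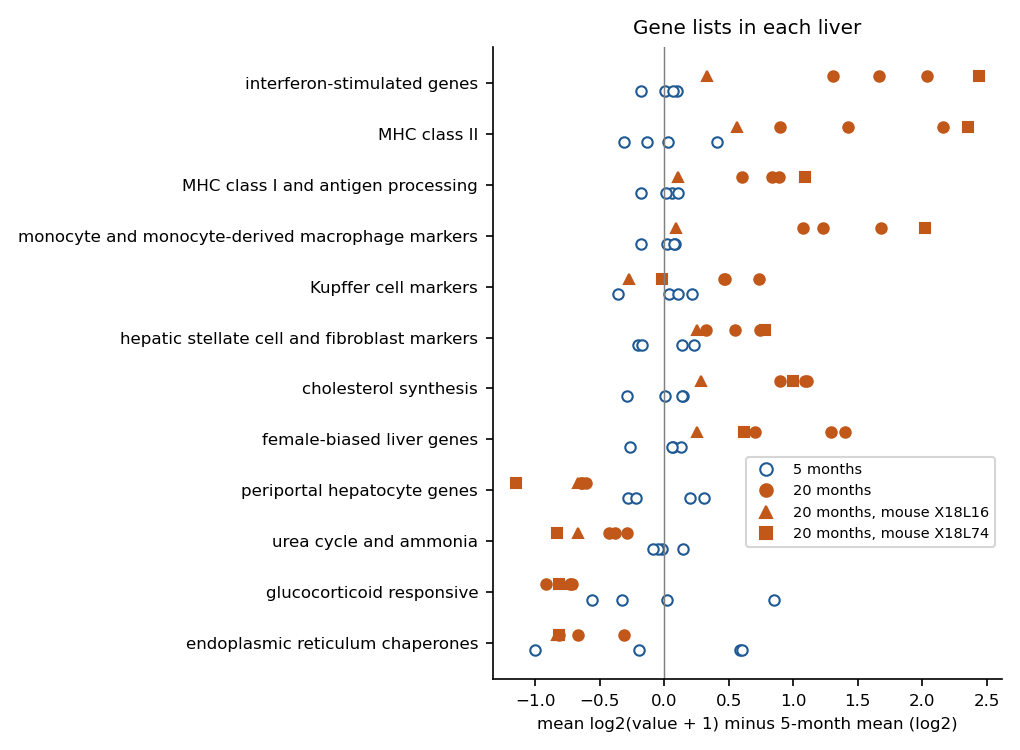
Mean log2(value + 1) over the tested members of 12 gene lists in each of the 9 livers, drawn as the difference from the mean of the 4 livers at 5 months (x axis, log2 units; open circles 5 months, filled circles 20 months, triangles mouse X18L16, squares mouse X18L74). Interferon, MHC class II and monocyte-derived macrophage lists lie to the right at 20 months and periportal, urea cycle and glucocorticoid lists to the left. Kupffer cell markers lie on both sides at 20 months, with mouse X18L16 at -0.27 and mouse X18L74 at -0.02. Mouse X18L16 is the older liver nearest to the 5-month mean in 7 of the 12 lists.

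Markers of recruited macrophages rose, whereas those of resident Kupffer cells mostly did not pass the test. Of 21 tested markers of monocytes and monocyte-derived macrophages, 13 were higher and none lower (median log2 change 1.22, 1.09 to 1.41 under the other scalings), and without Ly6c2 and Ms4a7, which reached the test through the 20-month livers alone, 11 of 19 were higher. Cx3cr1, the fractalkine receptor of patrolling monocytes, was at 1.02, 0.291, 0.927 and 1.20 at 5 months and 2.14, 5.41, 11.7, 5.34 and 23.8 at 20 months (log2 change 2.19 ± 0.49 (SE), adjusted p = 0.0153). Lyz2, the myeloid lysozyme, was at 58.7, 57.8, 36.1 and 52.8 at 5 months and 65.5, 171, 239, 141 and 366 at 20 months, and every 20-month liver exceeded every 5-month liver. Of 20 genes of lipid-associated macrophages, 12 were higher and 1 lower, or 11 of 19 higher without Atp6v0d2, which reached the test in the same way. Among them the lipid receptor Trem2 was at 1.08, 0.0727, 0.927 and 0.3999 at 5 months and 1.93, 6.41, 8.59, 4.71 and 11.3 at 20 months (log2 change 2.12 ± 0.38 (SE), adjusted p = 0.00866). The macrophage elastase Mmp12 was at 1.08, 0.582, 0.855 and 1.12 at 5 months and 2.90, 15.1, 21.5, 21.01 and 57.8 at 20 months (log2 change 3.24 ± 0.58 (SE), adjusted p = 0.00890). The galectin Lgals3 was at 4.80 to 6.30 at 5 months and 6.41 to 41.4 at 20 months. In each the ages did not overlap, with mouse X18L74 the highest. The member that fell was Ctsl, a lysosomal protease (-0.65 ± 0.17, adjusted p = 0.0251). By contrast, 2 of 16 Kupffer cell markers were higher and 1 lower. Clec4f, a lectin specific to these cells, was at 81.8, 119, 65.3 and 108 at 5 months and 68.0, 176, 166, 144 and 83.6 at 20 months (log2 change 0.38 ± 0.29 (SE), adjusted p = 0.357), with overlapping ages, while the scavenger protein Cd5l rose from between 50.6 and 81.2 at 5 months to between 65.3 and 284 at 20 months (log2 change 1.32 ± 0.34 (SE), adjusted p = 0.0246). The marker named as lower, C6, is also a complement gene of hepatocytes. Kupffer cell markers had higher calls from 0 without mouse X18L18 to 5 without mouse X18L16 with 1 liver left out. Monocyte markers called higher ranged from 5 (without mouse X18L18) to 18 and macrophage genes from 9 (without mouse X18L18) to 13 over the fits that left out 1 liver. Ctsl was no longer called in 5 of 9 fits without 1 liver (adjusted p up to 0.0757 without mouse X5L5001) and Cd5l in 4 (0.0701 without X5L5001). Cx3cr1, Lyz2, Trem2, Mmp12 and Lgals3 kept their calls in each of these fits.

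Lymphocyte genes were low in level and rose in part. Of 10 tested T and NK cell markers, 3 were called higher, namely the chemokine Ccl5 (0.955 to 1.24 at 5 months and 3.10 to 19.5 at 20 months), the kinase Lck (0.0727 to 1.04 at 5 months and 1.02 to 3.61 at 20 months) and the co-receptor Cd8a (0.127 to 0.364 at 5 months and 0.625 to 4.14 at 20 months). Cd8a reached the test through the 20-month livers alone, as did 2 markers that did not pass, so its call is partly set by the filter, and 2 of the other 7 were higher. Of 9 tested B cell markers 7 were higher and none lower, with 2 of the 7 in the same position as Cd8a, which left 5 of 7. With 1 liver left out, T and NK cell markers had higher calls from 1 without mouse X18L17 to 4 and B cell markers higher calls from 4 without mouse X18L17 to 7. Cd22, a lectin that restrains B cell receptor signals, was at 1.21, 0.946, 1.07 and 1.76 at 5 months and 3.61, 5.76, 3.34, 4.26 and 5.21 at 20 months (log2 change 1.27 ± 0.18 (SE), adjusted p = 0.00605). The ages did not overlap for Cd22. Of 5 plasma cell markers Jchain, which joins secreted antibodies, was higher (0.509 to 2.16 at 5 months and 2.55 to 24.9 at 20 months). The transcription factor Tox fell (11.8 to 31.4 at 5 months and 7.12 to 11.5 at 20 months), a gene that is not limited to lymphocytes. Chemokine genes that rose included interferon-inducible Cxcl10 and Cxcl9 (2.01) and the neutrophil attractant Cxcl1. Cxcl1 was at 1.53, 0.509, 2.21 and 1.84 at 5 months and 1.78, 7.41, 14.2, 7.33 and 41.9 at 20 months (log2 change 2.11 ± 0.61 (SE), adjusted p = 0.0359), with mouse X18L16 inside the 5-month range, and 1 of 5 neutrophil markers passed the test (Il1b, 0.86; with 1 liver left out, higher calls from 0 without mouse X18L18 to 4 without mouse X18L16). Among complement genes the macrophage-made C1qa and C1qb rose (0.995 and 1.14), while C3, made mainly by hepatocytes, was at 9363 to 10515 at 5 months and 6171 to 10876 at 20 months (log2 change -0.21 ± 0.26 (SE), adjusted p = 0.583). Jchain was no longer called in 3 of 9 fits without 1 liver (adjusted p up to 0.0794 without mouse X5L5001), Lck in 6 (0.0979 without X5L5001), Tox in 4 (0.0688 without X18L18), Cxcl1 in 7 (0.0995 without X5L5001), Il1b in 6 (0.0973 without X18L18), C1qa in 6 (0.0715 without X5L5001), C1qb in 4 (0.0632 without X18L18) and Cd8a in 4 of the 5 in which it could be tested (0.0648 without X5L4299). Cd22, Ccl5 and Cxcl9 kept their calls in each of these fits.

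Acute phase genes were called at about the share of all genes, and single members went both ways. The inducible serum amyloid Saa3 was at 8.15, 2.69, 4.35 and 5.60 at 5 months and 10.4, 15.2, 136, 16.5 and 236 at 20 months (log2 change 2.77 ± 0.83 (SE), adjusted p = 0.0401). The acid glycoprotein Orm2 was at 17.2, 6.84, 24.7 and 14.5 at 5 months and 15.98, 217, 339, 131 and 341 at 20 months (log2 change 3.20 ± 0.77 (SE), adjusted p = 0.0198), with mouse X18L16 inside the 5-month range. Saa2 rose as well (2.42 ± 0.58, adjusted p = 0.0190). The iron-scavenging lipocalin Lcn2 was at 31.1, 11.4, 26.7 and 8.56 at 5 months and 10.7, 111, 460.1, 184 and 903 at 20 months, and did not pass the test (log2 change 3.14 ± 1.01 (SE), adjusted p = 0.0502). Mouse X18L16 was in the 5-month range for Lcn2 and mice X18L18 and X18L74 were at the top. Haptoglobin (Hp), fibrinogens and hemopexin (Hpx), which are abundant acute phase proteins, did not pass, with log2 changes of 0.16 for Hp, -0.44 for Fga and 0.79 for Hpx. Hamp, which encodes the iron hormone hepcidin and responds both to inflammation and to iron, fell from between 1171 and 1979.7 at 5 months to between 265 and 749 at 20 months (log2 change -1.73 ± 0.28 (SE), adjusted p = 0.00775), and its upstream ligand Bmp6, which is made by sinusoidal endothelium, was at 14.1, 17.6, 12.2 and 14.8 at 5 months and 10.02, 7.16, 8.11, 8.01 and 7.47 at 20 months (log2 change -0.77 ± 0.14 (SE), adjusted p = 0.00883), with no overlap. The list as a whole had 4 of 30 members higher and 2 lower, a share of 20% beside the 19.8% of all genes. Over the fits that left out 1 liver, 0 (without mouse X18L18) to 11 were higher (11 without mouse X18L16). Saa3 was no longer called in 5 of 9 fits without 1 liver (adjusted p up to 0.105 without mouse X5L5001), Orm2 in 2 (0.0624 without X5L5001) and Saa2 in 1 (0.0535 without X18L18). Hamp and Bmp6 kept their calls in each of these fits.

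Genes of nitrogen disposal fell. Of 17 tested genes of the urea cycle and ammonia handling, 8 were lower and 1 higher (median -0.37, -0.38 to -0.13 under the other scalings). Cps1 (gene ID 227231, chr1:67122426-67231267), the mitochondrial enzyme that commits ammonia to the cycle, was at 7924, 12912, 5997 and 5643 at 5 months and 1920.4, 2069.7, 2006, 2053 and 974 at 20 months (log2 change -2.14 ± 0.31 (SE), adjusted p = 0.00605). Ass1 (gene ID 11898, chr2:31470270-31520670), which makes argininosuccinate, was at 6914, 6606, 4953 and 4461 at 5 months and 1723, 2854, 2505, 2074 and 1325 at 20 months (log2 change -1.48 ± 0.26 (SE), adjusted p = 0.00866). Asl, which cleaves it, was at 1425, 1699.8, 1203 and 951 at 5 months and 483, 459, 643, 480.2 and 329 at 20 months (log2 change -1.46 ± 0.21 (SE), adjusted p = 0.00605). Arg1 (gene ID 11846, chr10:24915207-24927470), which releases urea, was at 2942, 3395, 2673 and 2300.3 at 5 months and 1332, 1075, 1073, 1307 and 809 at 20 months (log2 change -1.34 ± 0.19 (SE), adjusted p = 0.00589). The 5-month and 20-month livers did not overlap for any of these 4, and mouse X18L74 was the lowest liver for each. The cytosolic aspartate aminotransferase Got1, which feeds the cycle, fell from between 349.9 and 955 at 5 months to between 112 and 209 at 20 months (log2 change -1.97 ± 0.28 (SE), adjusted p = 0.00589). Glutamine synthetase (Glul), which fixes the ammonia that escapes the cycle in the last pericentral cells, was at 632 to 1383 at 5 months and 787 to 1681 at 20 months (log2 change 0.31 ± 0.28 (SE), adjusted p = 0.438), while the ammonium channel Rhbg of the same cells rose (2.02 ± 0.59, adjusted p = 0.0358). Rhbg and Ass1 share 60.4% and 38.6% of their 50-base windows with other annotated transcripts. Members called lower numbered 6 (without mouse X5L4299) to 8 over the fits that left out 1 liver. Rhbg was no longer called in 7 of 9 fits without 1 liver (adjusted p up to 0.0936 without mouse X5L4299). Cps1, Ass1, Asl, Arg1 and Got1 kept their calls in each of these fits.

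**Figure D3:**
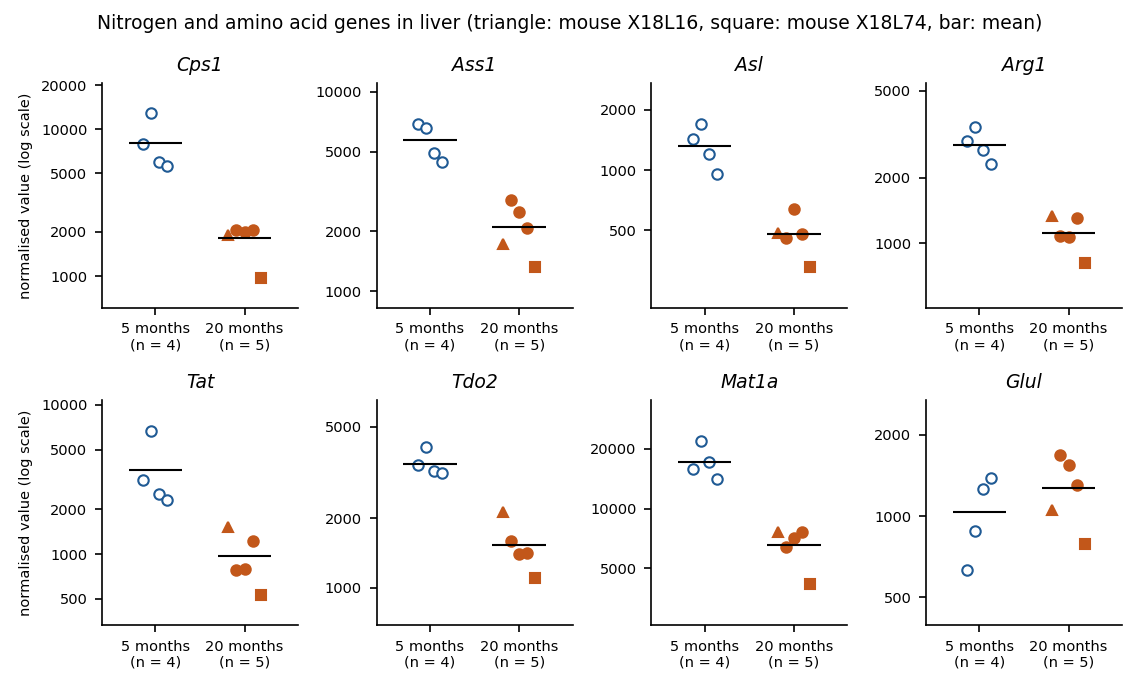
Value of 8 genes of nitrogen and amino acid metabolism in each liver (y axis, deposited normalised value, log scale; open circles 5 months, filled circles 20 months, triangles mouse X18L16, squares mouse X18L74, bars group means). Cps1 falls from a mean of 8119 to 1805, and 7 of the 8 genes show no overlap between the ages while Glul overlaps.

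Amino acid catabolism followed the urea cycle, with 15 of 49 tested genes lower and 1 higher (median -0.24, which became 0.00 when the factors were taken out). Leaving out 1 liver gave higher calls from 0 without mouse X18L17 to 3 without mouse X18L16. Several of the enzymes that fell open the breakdown of an amino acid. Tat, the first step for tyrosine, was at 3133, 6722, 2531 and 2298 at 5 months and 1527, 784, 798, 1221 and 535 at 20 months (log2 change -1.87 ± 0.36 (SE), adjusted p = 0.0112). Tdo2, the first step for tryptophan, was at 3397, 4066, 3195 and 3137 at 5 months and 2124, 1588, 1398, 1418 and 1104 at 20 months (log2 change -1.20 ± 0.20 (SE), adjusted p = 0.00839). In both, every older liver was below every younger one. Aass, which degrades lysine, fell from between 1377 and 1987 at 5 months to between 252 and 603 at 20 months (log2 change -1.76 ± 0.24 (SE), adjusted p = 0.00557). Serine dehydratase Sds (-1.21) and its paralog Sdsl (-2.09), the methionine adenosyltransferase Mat1a (-1.40) and Hpd of the tyrosine pathway (-0.92) fell as well. Mat1a, the liver's source of S-adenosylmethionine, was at 15721, 21881, 17104 and 14060.3 at 5 months and 7596, 6413, 7098, 7618 and 4157 at 20 months, and Ahcy, which hydrolyses the product of methyl transfer, fell by less (-0.75 ± 0.21, adjusted p = 0.0348). Bhmt, which remethylates homocysteine, was at 7342 to 14373 at 5 months and 4421 to 11344 at 20 months and did not pass (log2 change -0.36 ± 0.35 (SE), adjusted p = 0.489). Asparagine synthetase (Asns), which uses glutamine nitrogen, fell from between 15.5 and 52.6 at 5 months to between 3.56 and 6.27 at 20 months (log2 change -2.16 ± 0.30 (SE), adjusted p = 0.00589), and Etnppl, which degrades phosphoethanolamine, was at 321, 288, 52.6 and 69.8 at 5 months and 28.5, 27.7, 34.8, 22.6 and 11.5 at 20 months (log2 change -2.48 ± 0.53 (SE), adjusted p = 0.0136), with mice X5L4299 and X5L5001 well above the other 5-month livers. Sds was no longer called in 3 of 9 fits without 1 liver (adjusted p up to 0.0661 without mouse X5L5001), Hpd in 3 (0.0821 without X5L5001) and Ahcy in 6 (0.101 without X5L5001). Tat, Tdo2, Aass, Sdsl, Mat1a, Asns and Etnppl kept their calls in each of these fits.

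The 20 genes with the highest values, which took 23.8 to 25.9% of reads at 5 months and 19.8 to 23.04% at 20 months, contained 3 genes that fell (Mat1a, Serpina3k and Ehhadh) and none that rose. Log2 changes were negative for 15 of the 20, and for 7, all negative, the ages did not overlap. Albumin (Alb, gene ID 11657, chr5:90460870-90476602) was at 103203, 125324, 73618 and 85608 at 5 months and 62703, 62917, 69595, 53723 and 26970.1 at 20 months, and although every older liver was below every younger one, it did not pass (log2 change -0.86 ± 0.61 (SE), adjusted p = 0.331). Apoa1, the main protein of high-density lipoprotein, was at 10565 to 12211 at 5 months and 8872 to 13607 at 20 months (-0.05, adjusted p = 0.908). Trf, the iron carrier transferrin, was at 12161 to 15226 at 5 months and 14237 to 25548 at 20 months (0.57, adjusted p = 0.230). Serpina3k, a kallikrein inhibitor, fell from between 13749 and 14837 at 5 months to between 3455 and 7063 at 20 months (log2 change -1.51 ± 0.28 (SE), adjusted p = 0.00966). Across hepatocyte identity genes 9 of 40 were lower and 1 higher, at a median of -0.29 that turned to 0.12 under quantile normalization, and the one that rose was the asialoglycoprotein receptor subunit Asgr2 (0.62). Among the transcription factors that maintain hepatocytes, Hnf4a was at 967, 1434, 743 and 759 at 5 months and 705, 654, 649, 691 and 523 at 20 months (log2 change -0.55 ± 0.20 (SE), adjusted p = 0.0675), and 2 of 26 passed (median -0.13, 0.04 with rescaling to the reads outside the top 20 genes and 0.10 without the factors), both lower, Prox1 (log2 change -0.78 ± 0.12 (SE), adjusted p = 0.00626) and Onecut1 (-0.90). Ehhadh was no longer called in 7 of 9 fits without 1 liver (adjusted p up to 0.105 without mouse X18L18) and Onecut1 in 7 (0.0911 without X18L18). Mat1a, Serpina3k and Prox1 kept their calls in each of these fits.

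Periportal genes fell, whereas pericentral genes rose by median but not in summed value. Of 29 tested periportal genes 14 were lower and 1 higher (median -0.74, -0.75 to -0.47 under the other scalings), and of 33 pericentral genes 8 were higher and 1 lower (median 0.45, 0.44 to 0.68). Pericentral genes summed to 16796.5 to 28869 at 5 months and 16477 to 29909 at 20 months. The mean log2(value + 1) of the pericentral list was 7.135 in mouse X18L16 and 7.132 in mouse X18L74. At 5 months it was 7.164 and 7.212 in mice X5L5238 and X5L5239, and 6.70 and 6.60 in mice X5L4299 and X5L5001. The periportal losses were led by urea and amino acid genes, and the lists share these members. They also included Pck1, the gluconeogenic enzyme phosphoenolpyruvate carboxykinase, which was at 6055, 7484, 5623 and 5102 at 5 months and 5105, 2896, 2107, 4417 and 2002 at 20 months (log2 change -0.96 ± 0.31 (SE), adjusted p = 0.0497). On the pericentral side, the Wnt-responsive factor Sp5 was at 1.46, 2.04, 5.35 and 4.32 at 5 months and 6.36, 11.3, 13.4, 13.5 and 9.67 at 20 months (log2 change 1.53 ± 0.30 (SE), adjusted p = 0.0113), the retinaldehyde dehydrogenase Aldh1a1 at 555 to 1480.4 at 5 months and 1595 to 2365 at 20 months (log2 change 1.03 ± 0.28 (SE), adjusted p = 0.0284) and Gulo, which completes vitamin C synthesis, at 220 to 376 at 5 months and 381 to 715 at 20 months (log2 change 0.93 ± 0.21 (SE), adjusted p = 0.0164). Cyp2e1, the classic pericentral P450, was at 7616 to 15773 at 5 months and 6232 to 11911 at 20 months and did not pass (log2 change -0.36 ± 0.35 (SE), adjusted p = 0.472), nor did Glul. The 1 pericentral gene that fell was Cyp27a1, a sterol hydroxylase (-0.69). Periportal genes called lower numbered 8 (without mouse X5L5001) to 16 and pericentral genes called higher 1 (without mouse X5L5001) to 12 over the fits that left out 1 liver. Pck1 was no longer called in 8 of 9 fits without 1 liver (adjusted p up to 0.129 without mouse X5L5001), Aldh1a1 in 4 (0.0791 without X5L5001), Gulo in 1 (0.0526 without X5L5001) and Cyp27a1 in 7 (0.113 without X5L5001). Sp5 kept its call in each of these fits.

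Genes that differ between the sexes in mouse liver changed in these males. Of 22 tested female-biased genes 10 were higher and 2 lower (median 1.09, and 0.46 without mouse X18L74), and of 24 male-biased genes 6 were lower and 1 higher (median -0.40). Of the female-biased genes called higher, 5 (Cyp2b13, Cyp3a41a, Hao2, Slc22a27 and Atp6v0d2) reached the test through the 20-month livers alone, which left 5 of 17. The steroid-metabolizing P450 Cyp2b9 was at 0.127, 0.145, 2.14 and 6.72 at 5 months and 30.02, 234, 168, 101 and 46.1 at 20 months (log2 change 5.25 ± 0.68 (SE), adjusted p = 0.00496). Its relative Cyp2b10, a target of the xenobiotic receptor CAR, went the other way, at 61.3, 138, 118 and 83.5 at 5 months and 7.17, 29.96, 16.2, 2.61 and 3.36 at 20 months (log2 change -3.38 ± 0.56 (SE), adjusted p = 0.00822), and the other female-biased gene that fell was Cyp17a1 (-3.37). The summed value of the listed genes, in which Cyp4a14 and Cyp4a10 were the most abundant, was 27006 to 34812 at 5 months and 3403 to 24874 at 20 months, opposite to the sign of the median. Female-biased Cyp2a22 was at 0.509, 0.873, 4.78 and 6.56 at 5 months and 12.01, 37.02, 40.7, 19.4 and 21.5 at 20 months (log2 change 2.90 ± 0.50 (SE), adjusted p = 0.00866). Ntrk2, the receptor of brain-derived neurotrophic factor, was at 3.44, 0.218, 0.784 and 0.720 at 5 months and 6.92, 18.6, 19.4, 10.7 and 48.8 at 20 months (log2 change 3.15 ± 0.50 (SE), adjusted p = 0.00775). In both, every older liver exceeded the younger ones. Male-biased Egfr, the epidermal growth factor receptor, fell from between 181 and 292 at 5 months to between 64.5 and 166 at 20 months (log2 change -1.24 ± 0.24 (SE), adjusted p = 0.0116), and Gstp1 from between 1383 and 2265 at 5 months to between 670.3 and 1647 at 20 months (log2 change -1.04 ± 0.26 (SE), adjusted p = 0.0219). The major urinary proteins, pheromone carriers that males secrete, did not pass in any of 18 members. Their values spread widely within each age. Mup7 was at 904, 3380.2, 20591 and 13201 at 5 months and 5776, 986, 982, 3188 and 1536 at 20 months. Mup11 was at 649.9, 2181, 5249.9 and 3379 at 5 months and 3094, 141, 178, 1741 and 266 at 20 months. Since 86.7% of the 50-base windows of Mup7 recur in other Mup genes, members cannot be separated. Leaving out mouse X18L17 or mouse X18L74 left 5 female-biased genes called higher and leaving out mouse X18L16 left 13, while male-biased genes called lower numbered 2 (without mouse X18L18) to 9. Gstp1 was no longer called in 4 of 9 fits without 1 liver (adjusted p up to 0.0631 without mouse X5L5001). Cyp2b9, Cyp2b10, Cyp2a22, Ntrk2 and Egfr kept their calls in each of these fits.

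Among genes of detoxification, 8 of 36 P450 genes of families 1 to 3 were higher and 1 lower (6 of 34 higher without Cyp2b13 and Cyp3a41a), and 7 of 21 glutathione transferases were higher and 1 lower (medians 0.33 and 0.52). Gstm3 was at 22.7, 9.53, 17.5 and 15.99 at 5 months and 28.3, 202, 128, 27.1 and 110.2 at 20 months (log2 change 2.17 ± 0.56 (SE), adjusted p = 0.0245). Gstm2 was at 29.7, 32.5, 54.3 and 52.4 at 5 months and 53.6, 241, 238, 98.5 and 239.9 at 20 months (log2 change 1.84 ± 0.43 (SE), adjusted p = 0.0179). Gsta2 was at 31.3 to 49.0 at 5 months and 52.99 to 137 at 20 months (log2 change 1.13 ± 0.26 (SE), adjusted p = 0.0179). Mice X18L16 and X18L19 were near the top of the 5-month range for Gstm3. P450 genes called higher numbered 5 (without mouse X18L17) to 11 and glutathione transferases 1 (without mouse X5L5001) to 8 over the fits that left out 1 liver. The abundant drug-metabolizing P450s did not pass, Cyp3a11 at 0.31 and Cyp2d10 at -0.20. Glucuronosyl and sulfotransferases hardly moved as a group, 1 of 25 being higher and 1 lower (median -0.06, 0.11 with rescaling to the reads outside the top 20 genes and 0.17 without the factors; with 1 liver left out, higher calls from 0 without mouse X18L17 to 2 without mouse X18L16 and lower calls from 0 without mouse X18L17 to 2 without mouse X18L16). Of 29 antioxidant and Nrf2 target genes 4 were higher and 1 lower (with 1 liver left out, higher calls from 1 without mouse X5L5001 to 8 without mouse X18L16 and lower calls from 0 without mouse X18L17 to 3 without mouse X18L16), and the Nrf2 target Nqo1 did not pass (0.24, adjusted p = 0.546). Gpx4, which reduces lipid peroxides, was at 311, 286, 367 and 303 at 5 months and 469, 505, 644, 497 and 593 at 20 months (log2 change 0.77 ± 0.13 (SE), adjusted p = 0.00839). Gstm3 was no longer called in 2 of 9 fits without 1 liver (adjusted p up to 0.0738 without mouse X5L5001), Gstm2 in 2 (0.0546 without X5L5001) and Gsta2 in 1 (0.0565 without X5L5001). Gpx4 kept its call in each of these fits.

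Cholesterol synthesis rose as a pathway. Of 26 tested genes 16 were higher and none lower, at a median of 0.83 (0.82 to 1.07 under the other scalings). From the top of the pathway, Hmgcs1, which makes HMG-CoA and has the printed promoter with the sterol element, was at 219.6, 105, 186 and 236 at 5 months and 308, 446, 406, 376 and 406 at 20 months (log2 change 1.11 ± 0.22 (SE), adjusted p = 0.0113). Idi1, which isomerises the isoprene unit, was at 40.7, 21.7, 26.8 and 44.0 at 5 months and 73.4, 119, 129, 154 and 201.1 at 20 months (log2 change 1.97 ± 0.28 (SE), adjusted p = 0.00589). Sqle, which epoxidises squalene and is a controlled step, was at 16.7, 9.97, 12.05 and 15.7 at 5 months and 22.7, 58.3, 65.1, 65.2 and 72.2 at 20 months (log2 change 1.91 ± 0.30 (SE), adjusted p = 0.00775). Msmo1, which demethylates sterols, was at 38.6, 21.2, 30.9 and 41.9 at 5 months and 60.4, 125, 178, 153 and 170.1 at 20 months (log2 change 1.97 ± 0.30 (SE), adjusted p = 0.00746). In all 4 genes the ages did not overlap and mouse X18L16 was the lowest of the older livers. Fdft1, the squalene synthase, rose from between 20.51 and 46.9 at 5 months to between 52.9 and 135 at 20 months (log2 change 1.47 ± 0.30 (SE), adjusted p = 0.0119). The feedback protein Insig1, itself a target of the sterol-sensing factor SREBP2, was at 66.4, 77.2, 61.2 and 69.3 at 5 months and 117, 175, 237, 249.5 and 199 at 20 months (log2 change 1.45 ± 0.20 (SE), adjusted p = 0.00557). Later steps did not all move: Ebp (-0.13) and Tm7sf2 (0.07) did not pass. Members called higher numbered 10 (without mouse X18L18) to 20 over the fits that left out 1 liver, 20 without mouse X18L16 and 16 without mouse X18L74. Hmgcs1, Idi1, Sqle, Msmo1, Fdft1 and Insig1 kept their calls in each of the 9 fits that left out 1 liver.

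**Figure D4:**
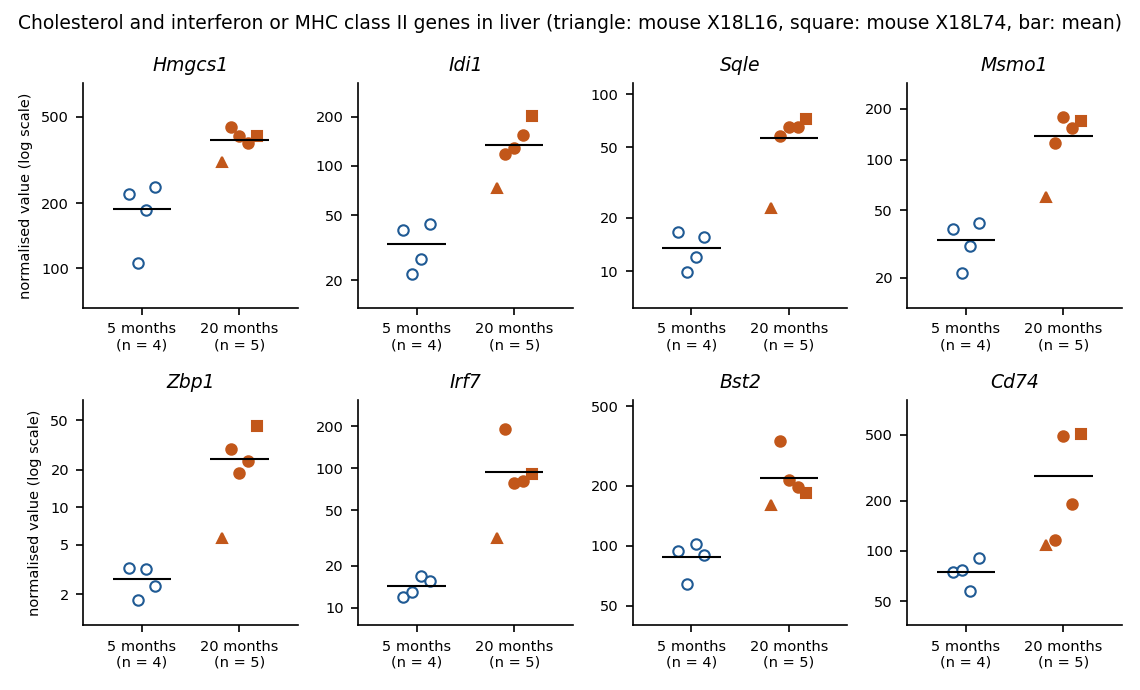
Value of 4 cholesterol synthesis genes and 4 interferon-stimulated or MHC class II genes in each liver (y axis, deposited normalised value, log scale; open circles 5 months, filled circles 20 months, triangles mouse X18L16, squares mouse X18L74, bars group means). Sqle rises from a mean of 13.6 to 56.7 and Zbp1 from 2.65 to 24.7, with every 20-month liver above every 5-month liver.

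Fatty acid genes were mixed. Of 30 lipogenic genes 4 were higher and 4 lower, and these counts rested on single livers, with higher calls from 3 to 10 without mouse X18L16 and lower calls from 0 without mouse X18L18 to 7 without mouse X18L16 when 1 was left out. Srebf1, the transcription factor of lipogenesis, was at 31.9, 25.9, 27.7 and 36.6 at 5 months and 46.6, 89.6, 83.6, 90.2 and 68.8 at 20 months (log2 change 1.26 ± 0.19 (SE), adjusted p = 0.00737). Mlxipl, the Mlx partner ChREBP, was at 86.3, 119, 83.2 and 102 at 5 months and 139.6, 165, 165, 163 and 209.6 at 20 months (log2 change 0.78 ± 0.14 (SE), adjusted p = 0.00890), and neither showed overlap. Their major target Scd1, the stearoyl-CoA desaturase, was at 586 to 2670 at 5 months and 793 to 3915 at 20 months and did not pass (log2 change 0.04 ± 0.50 (SE), adjusted p = 0.961), while Acacb, the acetyl-CoA carboxylase that restrains mitochondrial fatty acid import, fell (-1.51 ± 0.42, adjusted p = 0.0315). Of 44 genes of fatty acid oxidation 4 were lower and 1 higher (with 1 liver left out, higher calls from 0 without mouse X18L17 to 2 without mouse X18L74 and lower calls from 1 without mouse X18L17 to 15 without mouse X18L16). Peroxisomal Ehhadh was at 9686, 10429, 12853 and 15602 at 5 months and 11427, 4447, 2945, 4562 and 1508 at 20 months (log2 change -1.57 ± 0.49 (SE), adjusted p = 0.0437), with mouse X18L16 inside the 5-month range. The fatty acid omega-hydroxylase Cyp4a14 was at 19335, 25023, 18837 and 19891 at 5 months and 16898, 11473, 7696, 9894 and 1219.6 at 20 months, where the ages did not overlap yet the test was not passed (log2 change -1.54 ± 0.65 (SE), adjusted p = 0.111). Mitochondrial Cpt1a, which imports fatty acids, fell by 1.35-fold in mean value (log2 change -0.43 ± 0.14 (SE), adjusted p = 0.0495). Acacb was no longer called in 7 of 9 fits without 1 liver (adjusted p up to 0.0864 without mouse X5L5001), Ehhadh in 7 (0.105 without X18L18) and Cpt1a in 6 (0.128 without X5L5001). Srebf1 and Mlxipl kept their calls in each of these fits.

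Genes of lipid droplets moved both ways, 3 of 27 being higher and 4 lower (median -0.03, 0.15 with rescaling to the reads outside the top 20 genes and 0.21 without the factors), with higher calls from 1 without mouse X18L18 to 5 without mouse X18L16 and lower calls from 0 without mouse X18L18 to 7 without mouse X18L16 when 1 liver was left out. Fitm1, a droplet-forming protein typical of muscle, was at 7.45, 4.22, 46.3 and 50.3 at 5 months and 75.8, 117, 138, 138 and 93.3 at 20 months (log2 change 2.61 ± 0.61 (SE), adjusted p = 0.0181). The fatty acid receptor Cd36 rose from between 61.0 and 188 at 5 months to between 257 and 349 at 20 months (log2 change 1.29 ± 0.27 (SE), adjusted p = 0.0129). The lipolysis gatekeeper Plin5 was at 377, 529, 365 and 358 at 5 months and 315, 136, 143, 153 and 55.4 at 20 months (log2 change -1.52 ± 0.38 (SE), adjusted p = 0.0213). Cidec, which fuses droplets, was at 188, 219, 143 and 151 at 5 months and 200, 41.5, 20.3, 73.3 and 22.4 at 20 months (log2 change -1.79 ± 0.55 (SE), adjusted p = 0.0432). Mouse X18L16 was the highest of the older livers for both and lay inside the 5-month range for Cidec. Lipoprotein lipase (Lpl), which adult hepatocytes scarcely make and macrophages do, was at 23.9, 25.5, 18.2 and 23.9 at 5 months and 35.8, 93.3, 97.6, 75.9 and 105 at 20 months (log2 change 1.71 ± 0.27 (SE), adjusted p = 0.00775). Among lipoprotein genes (median -0.01, 0.16 with rescaling to the reads outside the top 20 genes, 0.23 without the factors and 0.18 under quantile normalization), Apoa4 fell from between 606 and 4673 at 5 months to between 142 and 1119 at 20 months (log2 change -2.43 ± 0.71 (SE), adjusted p = 0.0365) and Mttp, which loads lipid onto apolipoprotein B, from between 679 and 745 at 5 months to between 248.9 and 596 at 20 months (log2 change -0.89 ± 0.21 (SE), adjusted p = 0.0177), whereas Apoc2, the activator of lipoprotein lipase, and the insulin-induced Angptl8 rose (1.15 and 1.36). Apoc2 shares 78.3% of its 50-base windows with other annotated transcripts. Bile acid genes that passed included Akr1c6, a hydroxysteroid dehydrogenase, at 132, 73.6, 179.6 and 219 at 5 months and 433, 575, 709, 508 and 636 at 20 months (log2 change 2.002 ± 0.27 (SE), adjusted p = 0.00560), and Cyp8b1, the sterol 12-hydroxylase that sets cholic acid output, at 1327 to 1703 at 5 months and 232 to 1128 at 20 months (log2 change -1.31 ± 0.37 (SE), adjusted p = 0.0327). Of 33 such genes 2 were higher and 4 lower (median -0.22, 0.02 without the factors), and with 1 liver left out higher calls from 1 without mouse X18L17 to 3 and lower calls from 0 without mouse X18L18 to 8 without mouse X18L16. Fitm1 was no longer called in 2 of 9 fits without 1 liver (adjusted p up to 0.0512 without mouse X5L4299), Plin5 in 2 (0.0652 without X5L5001), Cidec in 8 (0.107 without X5L5001), Apoa4 in 6 (0.102 without X5L5001), Mttp in 1 (0.0511 without X18L18) and Cyp8b1 in 6 (0.0756 without X5L5238). Cd36, Lpl, Apoc2, Angptl8 and Akr1c6 kept their calls in each of these fits.

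In carbohydrate metabolism 7 of 32 glycolytic and fructose genes were higher and 2 lower (median -0.19, 0.05 without the factors), with higher calls from 0 without mouse X18L18 to 7 and lower calls from 0 without mouse X18L17 to 7 without mouse X18L16 when 1 liver was left out. The hepatocyte glucose transporter Slc2a2 was at 6.30, 6.84, 17.5 and 31.7 at 5 months and 24.02, 55.9, 59.9, 51.1 and 43.1 at 20 months (log2 change 1.74 ± 0.42 (SE), adjusted p = 0.0207), with mouse X18L16 inside the 5-month range. Ketohexokinase (Khk), which phosphorylates fructose, was at 73.8 to 143 at 5 months and 144 to 247 at 20 months (log2 change 0.78 ± 0.22 (SE), adjusted p = 0.0306). Hexokinases that normal hepatocytes barely express, Hk2 and Hk3, rose from low levels (1.21 to 4.80 and 1.92 to 7.53 in mean value), and so did Pkm (0.75), the pyruvate kinase of non-hepatocyte cells. The insulin signal transducers Insr and Irs2 fell (-0.63 ± 0.11, adjusted p = 0.00866, and -1.52 ± 0.44, adjusted p = 0.0357). The leptin receptor Lepr was at 26.1, 29.2, 4.71 and 5.68 at 5 months and 2.85, 2.05, 2.65, 2.39 and 4.16 at 20 months (log2 change -1.82 ± 0.47 (SE), adjusted p = 0.0251), and mice X5L4299 and X5L5001 were far above the other younger livers. The growth hormone receptor Ghr rose (0.50), and its main product Igf1 was at 380.1 to 554 at 5 months and 327 to 402 at 20 months (log2 change -0.25 ± 0.13 (SE), adjusted p = 0.176). Slc2a2 was no longer called in 3 of 9 fits without 1 liver (adjusted p up to 0.0638 without mouse X5L5001), Khk in 5 (0.0788 without X18L18), Hk2 in 4 (0.0682 without X5L5001), Hk3 in 5 (0.0602 without X18L18), Pkm in 7 (0.0964 without X5L5238), Irs2 in 7 (0.102 without X5L5001), Lepr in 5 (0.0715 without X5L5001) and Ghr in 5 (0.0904 without X5L5001). Insr kept its call in each of these fits.

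Genes that glucocorticoids induce fell. Of 20 tested genes 8 were lower and none higher (median -0.97, -1.005 to -0.73 under the other scalings), with Tat, Pck1 and Sds shared with the metabolic lists. Fkbp5, a chaperone that limits the glucocorticoid receptor, was at 129.7, 346, 96.3 and 59.98 at 5 months and 59.2, 39.9, 40.8, 39.2 and 30.1 at 20 months (log2 change -1.61 ± 0.40 (SE), adjusted p = 0.0218), with mouse X5L5001 well above the other young livers. Cdkn1a (p21), the cyclin-dependent kinase inhibitor that is both a glucocorticoid and a p53 target, was at 129.8, 257, 107 and 98.6 at 5 months and 78.4, 63.7, 40.6, 29.8 and 41.1 at 20 months (log2 change -1.50 ± 0.32 (SE), adjusted p = 0.0136), and mouse X5L5001 was again the highest. The receptor Nr3c1 itself was at 78.7 to 84.0 at 5 months and 68.0 to 102 at 20 months (log2 change -0.07 ± 0.12 (SE), adjusted p = 0.695). Igfbp1, a fasting- and glucocorticoid-induced secreted protein, was at 499.6, 1340.2, 265 and 283 at 5 months and 905, 77.2, 76.5, 137 and 25.3 at 20 months and did not pass (log2 change -2.05 ± 0.85 (SE), adjusted p = 0.105). Without mouse X5L5001 the list had 3 members lower, and over all fits that left out 1 liver 2 (without mouse X18L18) to 9. Fkbp5 was no longer called in 2 of 9 fits without 1 liver (adjusted p up to 0.0541 without mouse X18L18). Cdkn1a kept its call in each of these fits.

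Of p53 targets and senescence genes, 5 of 24 were higher and 1, Cdkn1a, lower (with 1 liver left out, higher calls from 3 without mouse X18L17 to 6). Phlda3, a p53 target that blocks Akt, was at 1.27, 1.75, 1.35 and 1.20 at 5 months and 3.71, 4.61, 4.03, 2.95 and 11.8 at 20 months (log2 change 1.29 ± 0.30 (SE), adjusted p = 0.0170), and the apoptosis effector Bax at 16.1 to 20.1 at 5 months and 25.95 to 33.1 at 20 months (log2 change 0.61 ± 0.11 (SE), adjusted p = 0.0104). Igfbp7, a secreted senescence-associated protein, rose (log2 change 0.67 ± 0.13 (SE), adjusted p = 0.0105), and Gdf15, a stress cytokine, was at 12.7 to 23.6 at 5 months and 20.2 to 85.8 at 20 months and did not pass (log2 change 0.77 ± 0.36 (SE), adjusted p = 0.148). Cell cycle genes were low in level, and 4 of 23 were higher (with 1 liver left out, higher calls from 2 without mouse X18L17 to 6), among them Mcm5 (1.11 to 2.69 in mean value) and Top2a (0.502 to 2.01). Top2a and E2f2 reached the test through the 20-month livers alone, as did Ccna2, which did not pass, and 2 of the other 20 were higher. Of 19 immediate early genes 5 were higher (with 1 liver left out, higher calls from 2 without mouse X5L5001 to 5 and lower calls from 0 to 2 without mouse X18L16), led by Atf3 (1.28 to 2.69 at 5 months and 4.56 to 9.27 at 20 months) and Ier5 (7.36 to 12.2 at 5 months and 12.2 to 32.6 at 20 months), while Fos and Jun did not pass (0.37 and -0.62). Ier5 was no longer called in 1 of 9 fits without 1 liver (adjusted p up to 0.0510 without mouse X5L5001) and Top2a in 4 of the 5 in which it could be tested (0.0725 without X5L4299). Phlda3, Bax, Igfbp7, Mcm5 and Atf3 kept their calls in each of these fits.

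Chaperones of the endoplasmic reticulum had a median log2 change of -0.65, while 3 of 25 passed as lower and 1 as higher (15 lower without mouse X5L4299). Their values spread widely at 5 months. Hspa5 (BiP), the main chaperone of the organelle, was at 456, 1278, 2896 and 2708 at 5 months and 534, 549.6, 646, 988 and 531 at 20 months (log2 change -1.21 ± 0.47 (SE), adjusted p = 0.0878). Derl3, an endoplasmic reticulum degradation factor, was at 0.191, 8.87, 104 and 81.8 at 5 months and 1.22, 0.701, 1.64, 1.93 and 1.40 at 20 months (log2 change -2.93 ± 1.06 (SE), adjusted p = 0.0724). For both genes mice X5L5238 and X5L5239, and to a smaller degree X5L5001, were high, and mouse X5L4299 lay below every older liver. Of heat shock chaperones 2 of 18 were lower (with 1 liver left out, lower calls from 0 without mouse X18L18 to 4 without mouse X18L16), the mitochondrial chaperonin Hspd1 (log2 change -0.57 ± 0.14 (SE), adjusted p = 0.0215) and Hspb8 (-0.75). Among clock genes the output factor Dbp was at 1.91, 1.6, 2.28 and 1.76 at 5 months and 2.60, 9.67, 12.5, 76.3 and 82.6 at 20 months (log2 change 2.81 ± 0.79 (SE), adjusted p = 0.0332). The deadenylase Noct was at 8.53, 9.46, 5.35 and 4.80 at 5 months and 61.8, 41.8, 62.9, 29.1 and 129 at 20 months (log2 change 2.90 ± 0.36 (SE), adjusted p = 0.00424). The repressor Nr1d1 was at 15.5, 16.1, 25.8 and 54.0 at 5 months and 64.7, 77.6, 86.4, 146 and 95.4 at 20 months (log2 change 1.85 ± 0.34 (SE), adjusted p = 0.00969). The ages did not overlap for these 3, and mouse X18L16 was the lowest of the older livers for Dbp and Nr1d1. Dbp swings widely within a day in mouse liver. The core activator Clock fell (log2 change -0.58 ± 0.13 (SE), adjusted p = 0.0151), as did Rora (-0.67), and both calls ended without the factors. Hspd1 was no longer called in 3 of 9 fits without 1 liver (adjusted p up to 0.0599 without mouse X5L5001), Hspb8 in 6 (0.113 without X5L5001) and Dbp in 6 (0.0828 without X5L5001). Noct, Nr1d1, Clock and Rora kept their calls in each of these fits.

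Genes of the hepatic stroma rose in part. Of 27 markers of stellate cells and fibroblasts 9 were higher and none lower (median 0.47, 0.37 to 0.69 under the other scalings), and of 40 collagen and basement membrane genes 12 were higher and 1 lower (11 of 38 higher without Col4a3 and Col4a4, which reached the test through the 20-month livers alone). Of the fibrillar collagens, Col1a1 was at 8.40, 5.82, 7.27 and 5.52 at 5 months and 12.2, 26, 34.9, 18.6 and 24.8 at 20 months (log2 change 1.59 ± 0.25 (SE), adjusted p = 0.00775). Col3a1 was at 14.1, 10.8, 11.8 and 9.36 at 5 months and 18.1, 43.0, 54.3, 27.8 and 49.1 at 20 months (log2 change 1.57 ± 0.28 (SE), adjusted p = 0.00890). Col5a2, a collagen that nucleates these fibrils, was at 10.1, 7.64, 6.27 and 5.44 at 5 months and 44.2, 63.1, 55.2, 81.8 and 35.1 at 20 months (log2 change 2.74 ± 0.24 (SE), adjusted p = 0.000601). The ages did not overlap for any of these collagens. Loxl1, which cross-links elastin, and Lum, a fibril-binding proteoglycan, rose (1.23 and 1.44). Lrat, the retinol-esterifying enzyme of quiescent stellate cells, rose as well, from between 13.8 and 16.2 at 5 months to between 23.9 and 55.6 at 20 months (log2 change 1.17 ± 0.21 (SE), adjusted p = 0.00882), while Dcn (0.34) and Reln (0.24), also made by stellate cells, did not pass. The basement membrane genes Col4a1 (0.09), Hspg2 (0.01) and Col18a1 (-0.01) did not pass. The collagen that fell was transmembrane Col13a1, from between 5.56 and 9.75 at 5 months to between 0.351 and 3.71 at 20 months (log2 change -1.45 ± 0.32 (SE), adjusted p = 0.0154). Besides Mmp12, the matrix proteases that rose included the collagenase Mmp13 and the gelatinase Mmp2, from mean values of 0.105 to 2.17 and 3.11 to 8.55 (Mmp13 was under 1 in every 5-month liver), and the inhibitor Timp2 rose (0.51). Of 27 tested matrix proteases and inhibitors 10 were higher and none lower. Among the 27, 3 reached the test through the 20-month livers alone, Mmp13 included, and 7 of the other 24 were higher. Mesothelial markers, which come from the surface of the liver, summed to 7.84 to 17.4 at 5 months and 15.6 to 35.7 at 20 months, 1 of 7 passed (Wt1, 1.12), and their part in these results was not tested. Over the fits that left out 1 liver, stellate and fibroblast markers called higher numbered 6 (without mouse X18L18) to 9 and collagen genes 8 (without mouse X18L18) to 13. Mmp13 was no longer called in 1 of 9 fits without 1 liver (adjusted p up to 0.0548 without mouse X18L18). Col1a1, Col3a1, Col5a2, Loxl1, Lum, Lrat, Col13a1, Mmp2, Timp2 and Wt1 kept their calls in each of these fits.

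Some sinusoidal endothelial markers fell. Of 27 tested, 5 were lower and none higher, at a median of -0.31 (-0.33 to -0.08 under the other scalings). Besides Bmp6 these were the VEGF receptors Kdr and Flt1, the endocytic adaptor Ehd3 (-0.53) and Oit3 (-0.73). Kdr was at 45.4, 59.9, 47.8 and 72.6 at 5 months and 42.4, 30.9, 40.3, 41.3 and 41.8 at 20 months (log2 change -0.49 ± 0.15 (SE), adjusted p = 0.0432). Flt1 was at 10.8, 23.3, 10.1 and 12.1 at 5 months and 7.79, 5.76, 7.69, 8.12 and 7.27 at 20 months (log2 change -0.79 ± 0.22 (SE), adjusted p = 0.0306), with mouse X5L5001 the highest. The scavenger receptors that define these cells, Stab2 (45.3 to 66.6 at 5 months and 41.2 to 56.4 at 20 months) and Stab1 (50.8 to 104 at 5 months and 38.1 to 98.4 at 20 months), did not pass (-0.14 and -0.40). Of cholangiocyte and progenitor markers 1 of 21 was higher, osteopontin (Spp1, 23.6 to 42.1 at 5 months and 57.96 to 99.4 at 20 months), which macrophages also make, and 3 were lower, among them Sox9 (23.9, 28.3, 23.9 and 22.95 at 5 months and 15.4, 12.3, 16.6, 9.60 and 20.1 at 20 months, log2 change -0.74 ± 0.18 (SE), adjusted p = 0.0218), while biliary Krt19 was at 1.04 to 2.47 at 5 months and 1.65 to 4.07 at 20 months (log2 change 0.39 ± 0.22 (SE), adjusted p = 0.223). Without the factors Kdr, Flt1, Ehd3, Oit3 and Sox9 did not pass. Endothelial markers called lower numbered 1 (without mouse X18L17) to 6 over the fits that left out 1 liver. Kdr was no longer called in 6 of 9 fits without 1 liver (adjusted p up to 0.108 without mouse X5L5001), Flt1 in 4 (0.0696 without X18L17), Ehd3 in 4 (0.0904 without X5L5001), Oit3 in 7 (0.104 without X5L5001) and Sox9 in 2 (0.0658 without X5L5001). Spp1 kept its call in each of these fits.

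Among lists of genes that every cell uses, proteasome subunits and histone modifying enzymes were called for 28.3% and 23.4%, above the 19.8% of all genes. The proteasome share includes 5 higher calls, all of them the immunoproteasome subunits and activators described above with antigen presentation. Proteasome subunits called lower were 17.4%, beside 9.79% of all genes. The share was 17.1% for cytosolic ribosomal proteins, 12.2% for splicing factors and 10.3% for respiratory chain genes. Directions of these groups depended on scale. Cytosolic ribosomal protein genes had 13 of 82 members higher and 1 lower at a median of 0.24, but 64 higher without the factors and 4 higher and 4 lower after removal of length and GC trends, and higher calls from 0 without mouse X18L18 to 18 with 1 liver left out. Of 78 respiratory chain genes 5 were higher and 3 lower (with 1 liver left out, higher calls from 0 without mouse X18L17 to 12 without mouse X18L74), with Atp5b, a catalytic subunit of ATP synthase, at 1663 to 1804 at 5 months and 965 to 1426 at 20 months (log2 change -0.47 ± 0.15 (SE), adjusted p = 0.0476) and a median whose sign turned when length and GC trends were removed. Of proteasome subunits 8 of 46, of splicing factors 8 of 74 and of histone modifying enzymes 12 of 64 were called lower. Of the 3 histone modifying enzymes called higher, 1 reached the test through the 20-month livers alone, which left 2 of 63 higher. With 1 liver left out, proteasome subunits had higher calls from 2 without mouse X5L5001 to 6 and lower calls from 2 without mouse X18L18 to 14 without mouse X18L16, splicing factors lower calls from 1 without mouse X18L18 to 17 without mouse X18L16 and histone modifying enzymes higher calls from 0 without mouse X18L17 to 3 and lower calls from 3 without mouse X5L4299 to 14. Those calls included Psmd2, Sf3b1 and the histone methyltransferase Setd1b (log2 changes -0.57, -0.45 and -0.74). The medians of these 3 lists (-0.19, -0.13 and -0.18) became 0.04, 0.11 and 0.05 without the factors, so no direction is given for them, and Psmd2, Sf3b1 and Atp5b did not pass without the factors. Psmd2 was no longer called in 7 of 9 fits without 1 liver (adjusted p up to 0.105 without mouse X5L5001), Sf3b1 in 5 (0.0851 without X18L18) and Atp5b in 7 (0.101 without X5L5238). Setd1b kept its call in each of these fits.

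**Figure D5:**
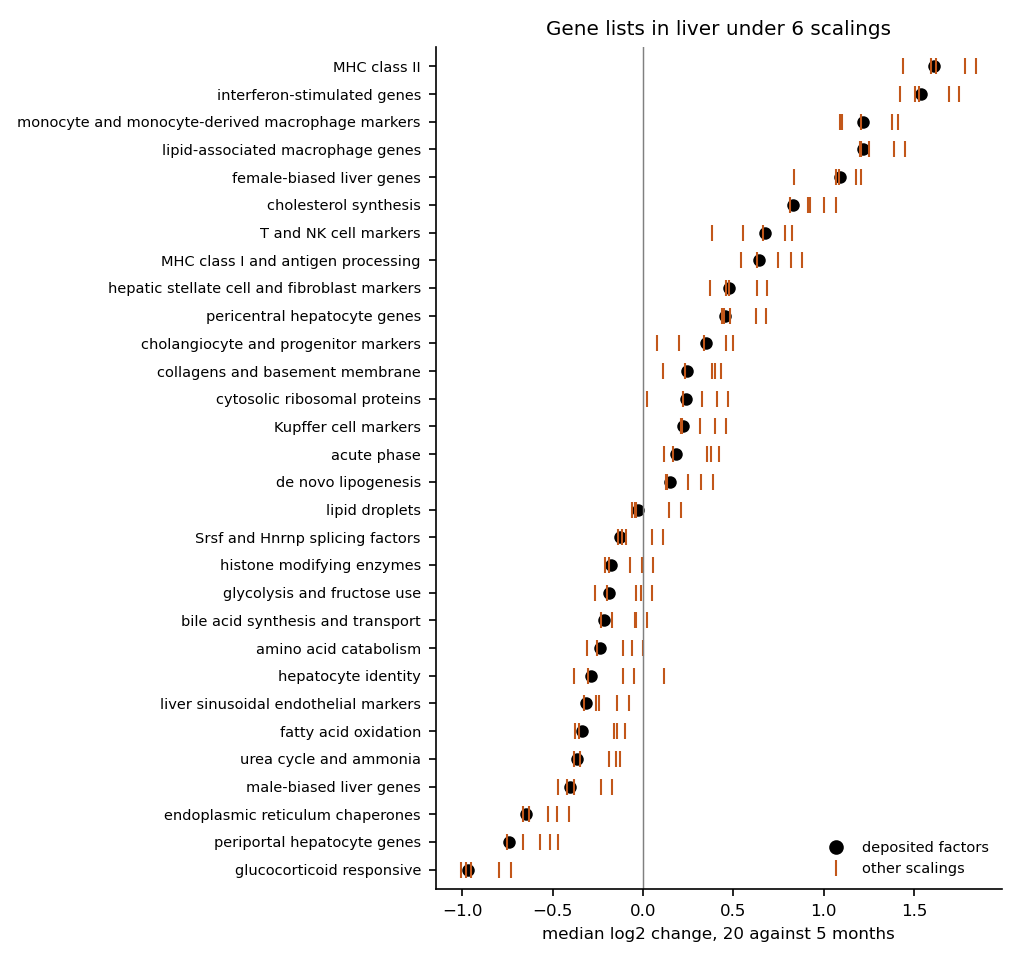
Median log2 change (20 against 5 months) of 30 gene lists in liver under the deposited factors (filled circles) and under 5 other scalings (small ticks), with the median of all tested genes drawn as a vertical line at 0.00. Interferon and MHC class II lists stay at 1.42 or above and the periportal and glucocorticoid lists at -0.47 or below under the scalings shown, while the splicing factor and histone modifier lists lie on both sides of the line, and the median of all genes itself moved by up to 0.22 under these scalings.

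Genes of the network around Mlx were called at a share of 18.75%, near the 19.8% of all genes. With 1 liver left out, lower calls ran from 1 without mouse X18L17 to 5 without mouse X18L16. Of 16 tested members (median -0.18, 0.05 without the factors) Mlxipl rose, and Mxi1, a Max-binding repressor, and the zinc finger factor Sp1 fell (-0.40 ± 0.10, adjusted p = 0.0252, and -0.62 ± 0.13, adjusted p = 0.0131). Txnip, the thioredoxin-binding protein that is a classic target of Mlx heterodimers, was at 179.6, 308, 146 and 183 at 5 months and 173, 143, 155, 146 and 95.5 at 20 months (log2 change -0.48 ± 0.22 (SE), adjusted p = 0.133), and Arrdc4, another such target, at 16.2 to 26.1 at 5 months and 15.8 to 20.96 at 20 months (log2 change -0.17 ± 0.14 (SE), adjusted p = 0.413). Neither Mxi1 nor Sp1 passed without the factors. The highest Txnip value was that of mouse X5L5001 and the lowest that of mouse X18L74. Myc was at 10.2 to 22.04 at 5 months and 7.89 to 20.46 at 20 months (log2 change -0.46 ± 0.28 (SE), adjusted p = 0.243). Mxi1 was no longer called in 5 of 9 fits without 1 liver (adjusted p up to 0.0726 without mouse X5L5001). Mlxipl and Sp1 kept their calls in each of these fits.

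Among genes in the middle of the range that belong to none of these groups, the smallest adjusted p among genes that rose at a level of 100 to 1000 belonged to Rtn4 (Nogo), an endoplasmic reticulum shaping protein, at 102, 67.4, 95.3 and 99.1 at 5 months and 179, 226, 215, 175 and 187 at 20 months (log2 change 1.11 ± 0.14 (SE), adjusted p = 0.00426). The actin-sequestering Tmsb4x was at 59.1, 43.6, 47.3 and 61.4 at 5 months and 100, 185, 242, 174 and 306 at 20 months (log2 change 1.83 ± 0.27 (SE), adjusted p = 0.00605). At the same level the lipid-transfer protein Sec14l4 fell from between 423 and 494 at 5 months to between 211 and 247 at 20 months (log2 change -0.999 ± 0.10 (SE), adjusted p = 0.00124), and Epb41, a membrane skeleton protein, fell from between 341 and 410.4 at 5 months to between 170.4 and 226 at 20 months (log2 change -0.91 ± 0.12 (SE), adjusted p = 0.00426). At 10 to 100 the membrane protein Adam11 was at 17.6, 22.5, 28.3 and 27.5 at 5 months and 138, 107, 124, 97.0 and 106 at 20 months (log2 change 2.22 ± 0.15 (SE), adjusted p = 9.00e-05). The thyroxine-binding globulin Serpina7 was at 6.62, 3.56, 12.5 and 20.4 at 5 months and 57.9, 148, 82.5, 127 and 113 at 20 months (log2 change 3.34 ± 0.41 (SE), adjusted p = 0.00421). Neither overlapped between the ages. Meg3, an imprinted noncoding RNA, rose from between 1.02 and 5.28 at 5 months to between 12.04 and 99.0 at 20 months (log2 change 3.16 ± 0.58 (SE), adjusted p = 0.00969). At 1 to 10 the developmental factor Irx1 was at 1.34, 1.09, 1.07 and 0.720 at 5 months and 6.56, 7.31, 6.36, 4.88 and 4.81 at 20 months (log2 change 1.76 ± 0.17 (SE), adjusted p = 0.00113). The ligand Wnt4 was at 2.61, 2.84, 2.28 and 1.92 at 5 months and 6.92, 7.01, 7.32, 6.99 and 6.47 at 20 months (log2 change 1.23 ± 0.13 (SE), adjusted p = 0.00231). The citrate cotransporter Slc13a2 fell from between 3.07 and 5.75 at 5 months to between 0.701 and 1.73 at 20 months (log2 change -1.41 ± 0.20 (SE), adjusted p = 0.00605). Rtn4, Tmsb4x, Sec14l4, Epb41, Adam11, Serpina7, Meg3, Irx1, Wnt4 and Slc13a2 kept their calls in each of the 9 fits that left out 1 liver.

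The change with age in liver was set against the change in the other tissues with an interaction term over all 27 samples. It differed from that of adipose tissue for 15.6% of 15572 genes and from that of skeletal muscle for 17.5%, and both comparisons share the liver samples. Read against these shares, cholesterol synthesis differed from adipose tissue for 9 and from muscle for 13 of 26 genes, the urea cycle for 7 and 5 of 17, and P450 genes for 11 and 10 of 37. Where a gene is hardly present in the other tissue, such a difference is mainly the change in liver. Interferon-stimulated genes differed from muscle for 31 of 54 but from adipose tissue for 5, and MHC class II for 7 and 0 of 11, and for adipose tissue these counts lay below the share over all genes. Among genes changed in liver, those with the smallest adjusted p for the difference from adipose tissue were Adgrv1, Cyp17a1, Gm29915, Asic5 and E030018B13Rik. Adgrv1, a large adhesion receptor, was at 0.127, 0, 0.499 and 0.160 at 5 months and 1.93, 6.01, 3.92, 3.63 and 5.46 at 20 months in liver, with log2 changes of 2.07 in liver and -0.80 in adipose tissue (difference 2.87, adjusted p = 1.30e-07). Adgrv1 reached the liver test through the 20-month livers alone, so its call in liver is partly set by the filter. The steroid 17-hydroxylase Cyp17a1 was at 153, 103, 54.2 and 42.2 at 5 months and 5.60, 6.61, 8.48, 4.66 and 8.57 at 20 months in liver, with log2 changes of -3.37 in liver and -0.08 in adipose tissue (difference -3.28, adjusted p = 1.24e-06). In both genes the ages did not overlap in liver. Asic5, of the acid-sensing channel family, was at 37.5 to 60.6 at 5 months and 5.68 to 18.4 at 20 months in liver. In adipose tissue its log2 change was -0.01 (difference -2.57). The predicted gene Gm29915 (1.68 in liver, 0.04 in adipose tissue) and the RIKEN transcript E030018B13Rik (-3.42 and -0.82) differed from adipose tissue as well (differences 1.64 and -2.60). With edgeR on recovered reads the difference from adipose tissue held for Adgrv1 and did not pass for Cyp17a1 (adjusted p = 0.0823), Gm29915 (0.870), Asic5 (0.448) and E030018B13Rik (0.998), genes whose values in adipose tissue were at most 0.262, 0.118, 0.0884 and 2.44. For muscle the same rule named Col5a2 and Clcn3 among others. Col5a2 rose in liver and had a log2 change of -1.31 in muscle (difference 4.05, adjusted p = 5.30e-07). The chloride transporter Clcn3 fell from between 78.0 and 95.8 at 5 months to between 52.9 and 67.4 at 20 months in liver and had a log2 change of 0.78 in muscle (difference -1.31, adjusted p = 3.31e-06).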

How the data were processed

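Poly-A selected, strand-marked libraries of 27 tissue samples were sequenced by the authors on an Illumina NovaSeq. The deposited values are a signal that the authors made from reads counted per gene in CLC Genomics Workbench, scaled to library size as CPM and divided by a factor per library. The genome and annotation used for the counting are not given in the sources used here, and the submitters' processing notes list GRCm38.p6 and mm10. The design had assumed plain CPM, and the values proved to carry factors. Every value was a whole multiple of the worth of 1 read (tolerance 0.1 reads), so reads were recovered for the count-based tests.

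Samples were grouped by the annotated tissue and age. The members and gene lists were chosen with earlier results of these data known. Genes at 1 or more in at least 4 of 9 livers were fitted on log2(value + 1) with limma 3.58.1 (variance trend, Benjamini-Hochberg adjusted p under 0.05, R 4.3.3), and the fold changes understate those of low genes. A list was described by its counts and its median beside those of all genes. Differences between tissues were fitted as interactions over all 27 samples. Alternatives were edgeR 4.0.16, DESeq2 1.42.0, other scalings, filters and pseudocounts, sample weights and each liver left out. The procedures were tested on simulated data.

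Genes were named by rule: the Mlx network, the 25 largest changes in each direction, the 20 with the highest values, the 5 smallest adjusted p in each direction within ranges of level, up to 6 called and 6 high members of each list with its defining members, and the leading interactions. Asgr2 and Psme2 fall outside the rule, as do several genes named because they reached the filter through 1 age alone, and were chosen after their values were seen. Some genes that the rule names are not reported here. Members of one age are separate mice, and the p-values measure the spread between these mice. The 4 mice aged 5 months gave all 3 tissues, and deviations of the same mouse from the group means correlated at -0.02 to 0.29 between tissues (consensus 0.10). Since all samples with one number come from one animal, the numbers pair the tissues of the young mice and enter only the comparisons between tissues. Replicate libraries differed by more than sampling noise, by chi-square per degree of freedom on recovered reads. At 5 months it was 13.5 between mice X5L5238 and X5L5239 and 42.2 between X5L4299 and X5L5001. Between these 2 pairs it was 89.2 to 102, and the cause of this split was not tested. Of the genes named, 29 share over 20% of their 50-base windows with other annotated transcripts and 41 overlap an exon on the opposite strand, and their values are less certain, since neither the treatment of multiple matches nor the use of strand is given. Promoters and gene positions are those of RefSeq (GRCm38.p6). Precision was limited by 4 and 5 mice and by 17200431 to 24179928 reads per library.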

Additional observations from a re-analysis of the deposited data

Results flagged for a closer look

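In each age group the highest or lowest mouse was checked against the rest for the genes named and for the lists, by the gap to the nearest mouse relative to the range of the group. A mouse stood apart in 30 of 447 gene groups (6.71%) and in 10 of 128 list groups (7.81%), and chance flags about 1 in 20.

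Mouse X18L16 at 20 months was far above the other 4 older livers for Apoa4 (1119, others 142 to 239), Asic5 (18.4, others 5.68 to 7.31), Gdf15 (85.8, others 20.2 to 32.3), Gstp1 (1647, others 670.3 to 842), Igfbp1 (905, others 25.3 to 137), Irs2 (83.7, others 13.03 to 29.02), Jun (199, others 29.7 to 58.8) and Peg3 (40.1, others 10.9 to 15.96), and far below them for Sqle (22.7, others 58.3 to 72.2). Among lists it was lowest of the older livers for cholesterol synthesis (5.68, others 6.29 to 6.50) and complement (6.96, others 7.38 to 7.49), in units of mean log2(value + 1). Mouse X18L74 was far above the other older livers for Mmp13 (5.61, others 1.02 to 2.07), Phlda3 (11.8, others 2.95 to 4.61) and Ubd (460.2, others 2.44 to 78.3) and far below them for Cps1 (974, others 1920.4 to 2069.7), Cyp27a1 (261, others 492 to 569.7), Cyp2e1 (6232, others 10716 to 11911) and Hspg2 (24.8, others 35.0 to 38.2). Its list means were lowest for periportal hepatocyte genes (8.30, others 8.78 to 8.84), gluconeogenesis and glycogen (6.14, others 6.46 to 6.52) and respiratory chain subunits (6.73, others 7.07 to 7.18). Mouse X18L19 was far above for Egfr (166, others 64.5 to 91.3) and Hspa5 (988, others 531 to 646) and lowest for glucuronosyl and sulfotransferases (6.004, others 6.35 to 6.41), and mouse X18L17 was lowest for Kdr (30.9, others 40.2 to 42.4).

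At 5 months mouse X5L5001 was far above the other 3 livers for Cyp4a14 (25022, others 18837 to 19891), Flt1 (23.3, others 10.1 to 12.1), Insr (258, others 225 to 226), Plin5 (529, others 358 to 377) and Sp1 (85.1, others 63.9 to 66.2), and far below them for Psmb8 (5.82, others 13.3 to 14.2). Its list means were highest for immediate early genes (4.602, others 4.14 to 4.16) and Mlx and Extended Myc Network (5.202, others 4.82 to 4.87) and lowest for glutathione transferases (6.10, others 6.51 to 6.54). Mouse X5L4299 was far below the other younger livers for Cyp2e1 (7616, others 15122 to 15773) and Psmd2 (279, others 320.2 to 328). Mouse X5L5238 was highest for Mcm5 (1.497, others 0.955 to 1.02), and mouse X5L5239 for gluconeogenesis and glycogen (6.62, others 6.52 to 6.53). Cyp2b13 was at 0.240 in mouse X5L5239 and Cyp3a41a at 0.191 in mouse X5L4299, and both were at 0 in the other younger livers.

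The change with age differed between liver and adipose tissue for 2424 genes and between liver and skeletal muscle for 2732, by the interaction term over all 27 samples. For the genes named under this comparison the liver change minus that of adipose tissue, on the log2 scale, was 2.87 for Adgrv1, -3.28 for Cyp17a1, 1.64 for Gm29915, -2.57 for Asic5, -2.60 for E030018B13Rik, 2.31 for Col5a2 and -0.54 for Clcn3. The liver change minus that of muscle was 2.22 for Adgrv1, -3.15 for Cyp17a1, 1.68 for Gm29915, -2.55 for Asic5, -3.32 for E030018B13Rik, 4.05 for Col5a2 and -1.31 for Clcn3. Values in muscle were at most 0.23 for Adgrv1 and E030018B13Rik, 0.39 for Cyp17a1, 0.078 for Asic5 and 0 for Gm29915. For these genes, hardly present in muscle, the difference is mainly the change in liver.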

How the results depend on the processing

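The number of genes changed with age in liver, 2508, was within 1.5 times of that value for pseudocounts, filters, scalings, edgeR, DESeq2, no variance trend and the fit over all 27 samples (1732 to 3463), and was 4454 with sample weights. Leaving out 1 liver gave 959 (without mouse X18L18) to 3557 (without mouse X18L16). The weights raised the numbers of genes that differed between tissues as well, from 2424 to 6187 for adipose tissue and from 2732 to 4227 for skeletal muscle. Leaving out 1 liver gave 1900 to 2744 and 2147 to 3354. The livers of the 2 ages come from different mice, so the replicate block bears only on these tissue comparisons, where it gave 2758 and 3071 genes, and 2882 and 3074 together with removal of length and GC trends. It ended no call among the interaction genes named except that of Clcn3 against adipose tissue, in the block with the trends removed. Over the alternatives other than leaving out a liver, 38 of 45 named differences from adipose tissue kept direction and call, and 7 lost the call. Against muscle 41 of 45 kept both, 3 lost the call and 1 reversed. The difference of Cyp17a1 from muscle reversed with edgeR on recovered reads, to 1.21 (adjusted p = 0.582), and the cause was not tested.

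Of 239 named genes tested, 191 passed. Over the alternatives other than leaving out a liver, 3022 of 3309 gene comparisons kept direction and side of the threshold, 209 lost the call, 44 gained one and none reversed. Over the fits that left out 1 liver, 1682 of 2103 kept both, 393 lost the call and none reversed. Pseudocounts of 0.1 and 0.5 and a mean value of at least 5 ended no call. Testing genes at any level ended 54 calls, removal of length and GC trends 39, quantile normalization 30, the fit over all samples 25, CPM without the factors 21, rescaling to the reads outside the top 20 genes 20, a constant prior variance 8, edgeR 8 and DESeq2 3. The scaling without factors was chosen after seeing the data. Without the factors the calls lost were those of Atp5b, C6, Cidec, Clcn3, Clock, Cpt1a, Cyp27a1, Ehd3, Flt1, Hspb8, Kdr, Mxi1, Oit3, Onecut1, Pck1, Pros1, Psmd2, Rora, Sf3b1, Sox9 and Sp1. With length and GC trends removed they were those of Acacb, Alas2, Apoc2, B2m, Bax, C1qa, C1qb, Cd74, Cela1, Clcn3, Clock, Cpt1a, Ctsl, Cxcl10, Cyp3a41a, Dbp, Ehhadh, Flt1, Gpx4, Hba-a1, Hbb-bt, Igfbp7, Il1b, Insr, Kdr, Khk, Lck, Mxi1, Oas1g, Onecut1, Peg3, Phlda3, Pkm, Psme2, Rhbg, Rora, Saa3, Sf3b1 and Ubd. With edgeR they were those of Cela1, Cidec, Ehhadh, Il1b, Irs2, Onecut1, Pck1 and Peg3, and with DESeq2 Cidec, Ehhadh and Irs2. Of list medians, 100 of 895 moved by more than the spread between mice, most often without the factors, where the median of all genes moved by 0.22. With 1 read worth 0.0501 to 0.0800, genes at a value under 1 rested on at most 20 reads per liver.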

Other observations

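Gene groups that the comparisons above leave out are given here as values, read against the same shares of all genes. Of 26 tested genes of gluconeogenesis and glycogen 2 were higher and 2 lower (median -0.11, 0.07 with rescaling to the reads outside the top 20 genes and 0.13 without the factors), with higher calls from 0 without mouse X18L18 to 2 and lower calls from 1 without mouse X18L17 to 5 without mouse X18L16 when 1 liver was left out. Slc37a4, which carries glucose 6-phosphate into the endoplasmic reticulum for glucose release, was at 172, 280.5, 127 and 122 at 5 months and 64.5, 78.3, 74.3, 87.3 and 58.8 at 20 months (log2 change -1.19 ± 0.22 (SE), adjusted p = 0.0105), and the ages did not overlap. Of 9 ketone body genes 2 were higher, the dehydrogenases Bdh1 (0.89) and Bdh2 (0.91). Of 27 coagulation and fibrinolysis genes 1 was higher, the protease inhibitor Serpina10 (0.81), and 1 lower, the protein C cofactor Pros1 (-0.53). The list median was -0.01, 0.17 with rescaling to the reads outside the top 20 genes, 0.23 without the factors and 0.20 under quantile normalization. Coagulation genes had higher calls from 1 to 4 without mouse X18L16 and lower calls from 0 without mouse X18L18 to 2 without mouse X18L74 with 1 liver left out.

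Of 17 tested genes of the integrated stress response (median 0.04, -0.12 with length and GC trends removed) 1 was higher, Nupr1 (0.94), and 2 were lower, Asns and Cth, the cystathionine lyase that makes cysteine (-0.70). The list of liver growth and oncofetal genes had 9 tested members with 1 lower and none higher. The member that fell was the imprinted gene Peg3, at 38.6, 56.95, 30.5 and 34.7 at 5 months and 40.1, 14.8, 10.98, 15.96 and 10.9 at 20 months (log2 change -1.21 ± 0.33 (SE), adjusted p = 0.0306), where mouse X18L16 lay inside the 5-month range. Alpha-fetoprotein (Afp), a classic marker of fetal and malignant hepatocytes, stayed at 0.364 to 1.02 at 5 months and 0.305 to 1.85 at 20 months (log2 change 0.25 ± 0.24 (SE), adjusted p = 0.487). Of 77 mitochondrial ribosomal proteins 6 were higher and 1 lower (with 1 liver left out, higher calls from 3 without mouse X18L18 to 14 without mouse X18L74), and the largest of these changes was that of Mrpl23 (0.94). Peg3 was no longer called in 7 of 9 fits without 1 liver (adjusted p up to 0.0904 without mouse X5L5001), Bdh2 in 5 (0.0726 without X5L4299) and Pros1 in 3 (0.0590 without X5L5001). Slc37a4, Bdh1, Serpina10, Nupr1, Asns, Cth and Mrpl23 kept their calls in each of these fits.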
